A study of Mus musculus with 9 samples.

Results

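Wnt signalling was followed in whole mouse skin through 47 genes: the Wnt ligands, their Frizzled and Lrp receptors, the secreted inhibitors of the Sfrp and Dkk families with Wif1 and Frzb, and the cytoplasmic and nuclear components Axin1, Axin2, Apc, Ctnnb1, Dvl1, Dvl2, Dvl3, Tcf7l1 and Tcf7l2. They were chosen by gene symbol, without Sfrp1 and Dkk3, among the 12393 genes that at least 1 probe set named alone. The 47 genes had 73 of 20380 such probe sets, and a gene's value was the mean over its probe sets. By role they were 19 ligands, 11 receptors, 8 secreted inhibitors, 7 cytoplasmic components and 2 nuclear factors.

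RNA came from skin of mice 30 days old, of a mixed C57BL, DBA and FVB strain background, and each of 9 Affymetrix arrays received the RNA of 1 pool. The transgenic lines L60, L84 and LA had 2 pools each and the control mice, LC, had 3. The series title speaks of a constitutively active Akt, a kinase that relays growth factor signals, and of impaired signalling by bone morphogenetic proteins. The labels used here do not give the promoter that drives a transgene, how the 3 lines differ, what the control mice carry, whether a line stands for 1 founder, or how many mice made a pool. The p-values therefore measure only the spread between these pools.

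The deposited values are standardised scores, in which every probe set has a mean of 0 and an SD of 1 over the 9 arrays. A score shows on which arrays a gene was relatively high or low. It carries no expression level and no fold change, and levels of different genes cannot be compared. Differences are therefore given in SD units, with the SE of a linear model fitted in limma over all 12393 genes and 5 residual degrees of freedom. A change was called where the p, adjusted by Benjamini-Hochberg over all genes of a comparison, was under 0.05.

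Wnt ligands are secreted glycoproteins that bind Frizzled receptors together with the co-receptor Lrp5 or Lrp6. Without a ligand, a complex built on axin and Apc marks beta-catenin, the product of Ctnnb1, for degradation. With a ligand, Dishevelled proteins (Dvl) recruit axin to the receptor, and beta-catenin accumulates and activates genes together with TCF and LEF factors. Sfrp proteins, Frzb and Wif1 bind the ligands, and Dkk proteins bind the Lrp co-receptors. In skin the pathway is known for its need in the formation of hair follicles and in the growth phase of the hair cycle.

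Promoters were available for 33 of the 47 genes, 38 promoters in all, from RefSeq on the mouse build GRCm38.p6, each running from 250 bases before to 50 bases after a transcription start. The letters ATCAAAG or TTCAAAG, cores of the TCF and LEF motif, were searched on both strands and occurred in 3 of the 38 windows (7.89%), against 8.65% of all 32851 mouse windows of that length. The 3 windows belonged to Dkk1, 1 of the promoters of Wnt11 and 1 of the promoters of Wnt5b. The median GC content was 70% in the windows of the Wnt genes and 52.7% in all windows, and the median count of CpG pairs was 28 and 7. Below stand 4 of them, as the start regions of genes that the results return to: Wnt11 and Sfrp5, low in L84, Axin2, a feedback target of the pathway, and Dkk2, high on all 6 transgenic arrays. They run 5′ to 3′ on the gene's own strand, and capitals mark the motif, which lies 51 bases before the start used for Wnt11. The positions are chr7:98834862-98835161 (plus strand) for Wnt11, chr19:42202203-42202502 (minus strand) for Sfrp5, chr11:108920099-108920398 (plus strand) for Axin2 and chr3:132085042-132085341 (plus strand) for Dkk2.
Wnt11: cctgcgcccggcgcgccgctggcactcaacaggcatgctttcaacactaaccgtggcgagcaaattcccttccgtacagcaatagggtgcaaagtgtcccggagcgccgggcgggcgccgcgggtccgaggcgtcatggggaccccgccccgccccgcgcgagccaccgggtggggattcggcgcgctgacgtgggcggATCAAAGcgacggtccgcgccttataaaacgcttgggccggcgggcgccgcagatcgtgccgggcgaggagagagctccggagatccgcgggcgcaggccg
Sfrp5: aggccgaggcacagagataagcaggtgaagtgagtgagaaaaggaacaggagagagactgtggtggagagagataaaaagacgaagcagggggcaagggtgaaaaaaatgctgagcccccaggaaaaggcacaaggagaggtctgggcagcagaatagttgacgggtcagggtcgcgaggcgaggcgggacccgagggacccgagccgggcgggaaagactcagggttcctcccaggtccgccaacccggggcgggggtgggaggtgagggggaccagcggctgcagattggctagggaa
Axin2: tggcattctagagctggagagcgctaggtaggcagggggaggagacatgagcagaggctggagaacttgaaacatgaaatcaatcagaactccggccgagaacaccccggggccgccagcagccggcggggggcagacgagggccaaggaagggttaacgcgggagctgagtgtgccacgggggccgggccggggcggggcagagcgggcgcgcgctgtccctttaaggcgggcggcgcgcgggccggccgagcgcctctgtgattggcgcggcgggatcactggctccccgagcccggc
Dkk2: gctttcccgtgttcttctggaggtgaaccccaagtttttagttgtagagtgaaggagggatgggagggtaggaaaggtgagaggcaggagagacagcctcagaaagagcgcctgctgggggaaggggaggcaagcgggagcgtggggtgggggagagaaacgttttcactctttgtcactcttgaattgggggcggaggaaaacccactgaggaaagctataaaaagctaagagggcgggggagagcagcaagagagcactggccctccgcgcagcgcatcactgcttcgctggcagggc
The windows of Sfrp5, Axin2 and Dkk2 hold neither set of letters, which says nothing of TCF binding elsewhere.

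Some arrays stood apart before any gene was considered. Probe sets for 18S ribosomal RNA averaged 2.09 on L60 1, 0.339 on L84 1 and 1.13 on LC 1, against -0.642 to -0.528 on the other 6 arrays. The SD of the scores over all genes was 1.13 on L84 1 and 1.20 on LA 2, against 0.675 to 0.836 on the other 7. The scores of cell type markers moved with the lines as well. The mean score of hair shaft and matrix markers (13 of 14 listed genes measured) lay between 0.084 and 0.220 in L60, between -0.949 and -0.879 in L84 and between -0.991 and -0.857 in LA, against 1.03 to 1.17 in LC, and 10 of the 13 fell in L84 and in LA. Inner root sheath markers (6 of 8) lay between -1.06 and -0.654 in L84 and between -1.09 and -0.744 in LA, against 0.507 to 0.942 in LC. Epidermal markers (7 of 7) lay between -0.217 and 0.585 in L60, 0.153 and 0.662 in L84 and -0.0513 and 0.204 in LA, against -0.493 to -0.420 in LC. This mean covers both directions: 5 of the 7 had a positive difference in each line, and the other 2, Flg and Ivl, lay below all LC arrays in L84 and LA. Fibroblast markers (6 of 6) differed within L84, at -1.82 on L84 1 and 0.647 on L84 2, and lay between 0.526 and 0.858 in LA, against -0.327 to 0.089 in LC. Melanocyte markers (4 of 4) lay between -0.954 and -0.699 in L84 and between -1.08 and -0.962 in LA, against 0.705 to 1.11 in LC, and 2 fell in L84 and 3 in LA. In L60 their mean lay between 0.203 and 0.704, narrowly below LC. In LA, lymphocyte markers (4 of 4) lay between 0.271 and 1.72, against -1.07 to -0.208 in LC, and macrophage markers (3 of 3) between 0.554 and 1.34, against -0.617 to -0.312 in LC. The mean of lymphocyte markers was above LC in L84 too, between -0.114 and 0.0326. The 1 Schwann cell marker measured, Mbp, rose in LA (0.718 and 1.03, against -1.06 to -0.795 in LC), and the 1 blood marker lay at 1.08 and 2.17 there, against -0.607 to -0.231 in LC. Mbp also lay above LC in L60 (-0.0700 and 0.146) and in L84 (0.312 and 0.589), without passing the test. Skeletal muscle markers (7 of 7) lay between 0.0657 and 1.61 in L84 and 0.209 and 0.954 in LA, against -0.572 to -0.212 in LC. The mean of fat markers (4 of 6) was below LC in L84, and that of endothelial markers (4 of 4) below it in L84 and LA. No single endothelial marker lay below all LC arrays in either line, and 1 lay above them in LA. The mean of bulge markers (7 of 7, with Sfrp1 and Dkk3 among them) was above LC in all 3 lines. In LA, 4 of the 7 had a positive and 3 a negative difference, 2 lay below all LC arrays, and Sfrp1 fell. The means of dermal papilla and sebaceous markers overlapped LC in all 3 lines. A score has no true zero, so no marker could be checked for absence, and the part of these shifts in the values of the Wnt genes was not tested. In bulk skin, fewer cells of a type and less RNA per cell cannot be told apart.

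None of the 47 genes passed the test in any comparison. The adjusted p under 0.05 was met by 0 of 47 genes in L60, in L84 and in LA against LC, while 0% (0 genes), 0.565% (70 genes) and 1.8% (223 genes) of all genes met it in these comparisons. The smallest adjusted p among the 47 was 1.0 in L60, 0.154 for Wnt5a in L84 and 0.0734 for Dkk2 in LA. At an unadjusted p under 0.05 the counts were 3 in L60 (4.72% of all genes), 5 in L84 (12.2%) and 11 in LA (20.8%), or 6.38%, 10.6% and 23.4% of the 47. In L84 all 5 were lower than in LC, namely Wnt5a, Wnt11, Wnt8b, Sfrp5 and Axin2. In LA, Dkk2, Frzb, Axin2, Wnt7b, Wnt3a and Wnt1 were higher, and Wnt5a, Lrp6, Ctnnb1, Dvl3 and Fzd2 lower. With 5 residual degrees of freedom the intervals were wide: the 95% interval of Wnt5a in L60 ran from -1.12 to 0.668 SD units.

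The arrays of a line were also set directly against the 3 LC arrays, by counting genes for which every array of the line was higher, or every array lower, than each LC array. In L60, 5 genes were higher (all genes 14.4%) and 5 lower (10.8%). In L84, 5 were higher (13.8%) and 12 lower (14.7%). In LA, 10 were higher (27.8%) and 10 lower (21%). As shares of the 47 genes, 21.3% lay apart from LC in L60, 36.2% in L84 and 42.6% in LA, against 25.1%, 28.5% and 48.8% of all genes. The median difference of the 47 genes was 0.019 in L60, -0.345 in L84 and 0.154 in LA, and that of all genes 0.078, 0.003 and 0.247. In L84, 33 of the 47 differences (70.2%) were negative, against 49.9% over all genes.

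**Figure D1:**
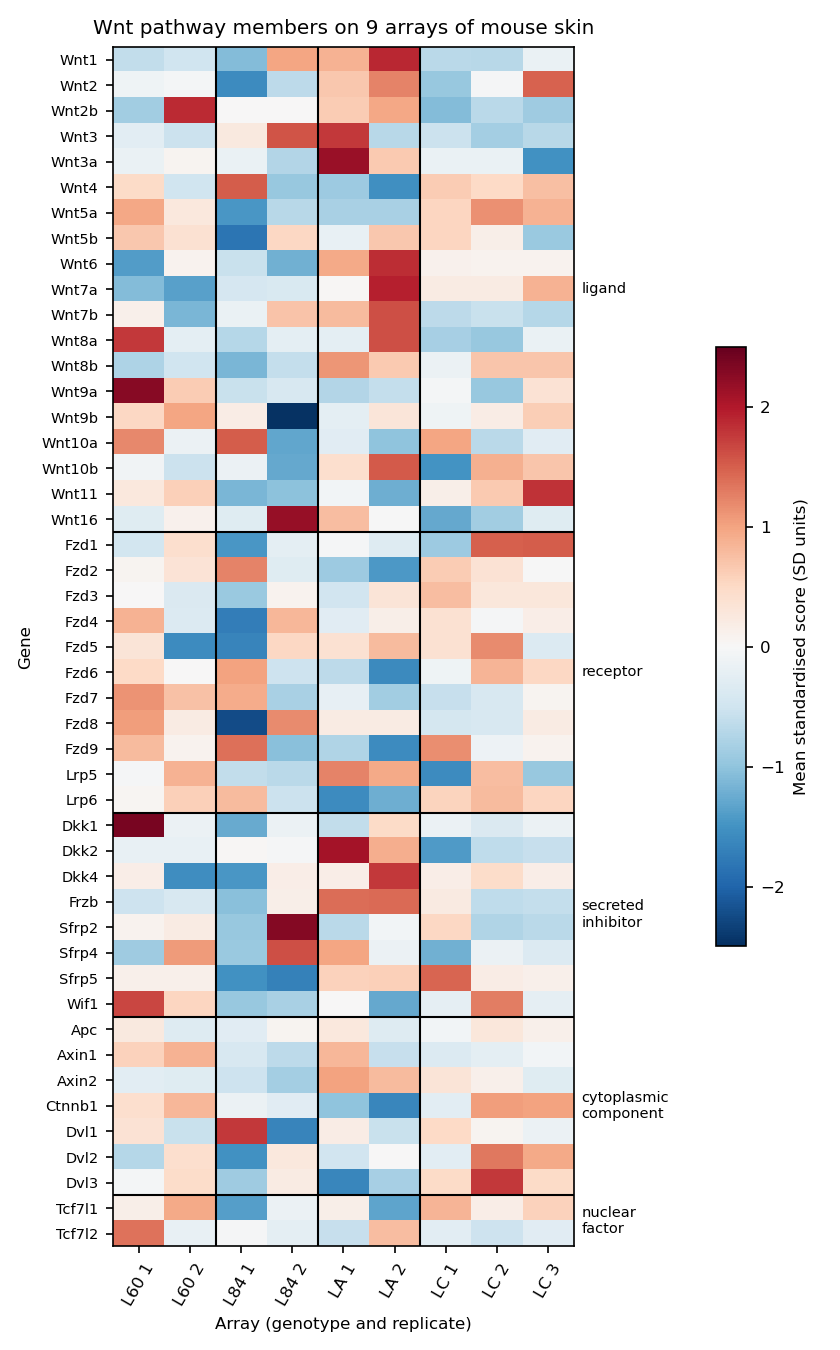
Scores (colour, SD units) of the 47 Wnt pathway genes (rows, grouped by role) on the 9 arrays (columns, the transgenic lines left of the LC controls). Wnt5a and Wnt11 are below all LC arrays on both L84 and both LA arrays, and Dkk2 is above all LC arrays on every transgenic array.

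**Figure D2:**
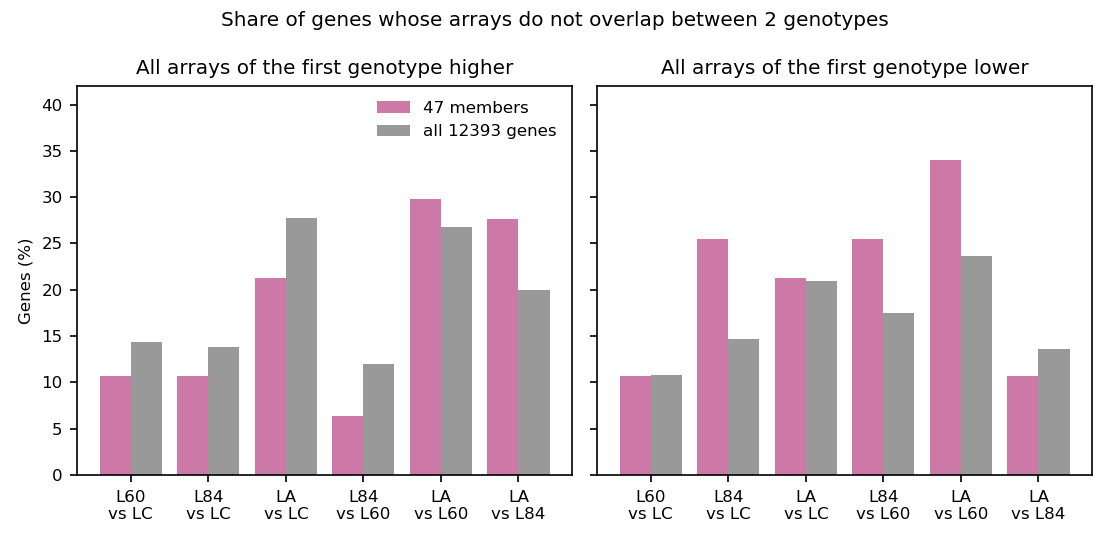
Percent of genes (vertical axis) whose arrays in the genotype named first all lay above (left panel) or below (right panel) all arrays of the genotype named second, for the 47 Wnt pathway genes and for all 12393 genes. Among the 47 genes, 12 lay lower in L84 than in LC and 10 higher in LA than in LC.

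Among the ligands, Wnt5a, known mainly for signalling without beta-catenin, was low in L84 and LA. Its scores were 0.974 and 0.261 on the L60 arrays, -1.45 and -0.686 on the L84 arrays and -0.820 and -0.819 on the LA arrays, against 0.531, 1.14 and 0.864 on the LC arrays. All L84 and LA arrays were below all LC arrays, and L60 overlapped LC. The difference from LC was -1.91 ± 0.35 (SE) in L84 (adjusted p = 0.154) and -1.67 ± 0.35 in LA (adjusted p = 0.0934), neither past the threshold. The differences of its 2 probe sets were -1.93 and -1.89 in L84 and -2.09 and -1.24 in LA.

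Wnt11, a ligand that directs cell movements in embryos, was likewise low in L84 and LA. It scored 0.270 and 0.592 in L60, -1.14 and -1.03 in L84 and -0.0608 and -1.23 in LA, against 0.137, 0.645 and 1.81 in LC. The groups of L84 and LC did not overlap, nor did those of LA and LC. The difference was -1.95 ± 0.61 in L84 (adjusted p = 0.333) and -1.51 ± 0.61 in LA (adjusted p = 0.249). The Wnt11 promoter printed above held the TCF and LEF letters, and its other promoter window did not.

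Wnt7b, a ligand made by epithelia and follicle keratinocytes, was high in LA. Its scores were 0.127 and -1.15 in L60, -0.166 and 0.709 in L84 and 0.793 and 1.61 in LA, against -0.658, -0.549 and -0.717 in LC. Both L84 and both LA arrays were above all LC arrays. The difference was 0.913 ± 0.51 in L84 (adjusted p = 0.568) and 1.84 ± 0.51 in LA (adjusted p = 0.145). Of its 2 probe sets, tested among all 20380, 1420892_at passed in LA (2.39 ± 0.22, adjusted p = 0.0266) and 1420891_at did not (1.29 ± 0.84, adjusted p = 0.438).

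Wnt3a and Wnt1, ligands best known for acting through beta-catenin, had their highest mean in LA. Wnt3a scored -0.164 and 0.0731 in L60, -0.164 and -0.725 in L84 and 2.15 and 0.663 in LA, against -0.164, -0.164 and -1.51 in LC. LC 1 and LC 2 were tied with L60 1 and L84 1. Wnt1 scored -0.617 and -0.491 in L60, -1.08 and 0.978 in L84 and 0.876 and 1.88 in LA, against -0.678, -0.702 and -0.166 in LC. In both genes the LA arrays lay above all LC arrays, but the 2 L84 arrays of Wnt1 lay far apart, and L84 2 lay above LA 1. The difference in LA was 2.02 ± 0.65 for Wnt3a (adjusted p = 0.181) and 1.89 ± 0.68 for Wnt1 (adjusted p = 0.218).

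Wnt4, which acts in kidney and reproductive tract development, was low in LA. It scored 0.474 and -0.499 in L60, 1.51 and -0.940 in L84 and -0.901 and -1.53 in LA, against 0.640, 0.489 and 0.758 in LC. The L60 and LA arrays lay below all LC arrays, L60 1 narrowly, and the 2 L84 arrays lay on either side of LC. The difference was -0.642 ± 0.79 in L60 (adjusted p = 1.0) and -1.84 ± 0.79 in LA (adjusted p = 0.267).

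Wnt3, needed for gastrulation, and Wnt2b, which acts with Wnt2 in lung formation, lay above LC in L84. Wnt3 scored -0.261 and -0.545 in L60, 0.250 and 1.57 in L84 and 1.77 and -0.688 in LA, against -0.545, -0.859 and -0.689 in LC. Wnt2b scored -0.860 and 1.87 in L60, 0.00883 on both L84 arrays and 0.643 and 0.966 in LA, against -1.08, -0.675 and -0.880 in LC. The LA arrays of Wnt3 overlapped LC, whereas those of Wnt2b did not. The difference in L84 was 1.61 ± 0.81 for Wnt3 (adjusted p = 0.525) and 0.888 ± 0.80 for Wnt2b (adjusted p = 0.722), and in LA it was 1.68 ± 0.80 for Wnt2b (adjusted p = 0.306).

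In L60 the ligands with an unadjusted p under 0.05 were Wnt9a, which acts in joint formation, Wnt7a, which patterns the limb, and Wnt8b, known from the forebrain. Wnt9a scored 2.28 and 0.643 in L60, -0.557 and -0.394 in L84 and -0.730 and -0.593 in LA, against -0.0581, -0.946 and 0.352 in LC. Wnt7a scored -1.08 and -1.36 in L60, -0.425 and -0.383 in L84 and 0.0324 and 1.95 in LA, against 0.20, 0.195 and 0.870 in LC. Wnt8b scored -0.764 and -0.496 in L60, -1.15 and -0.593 in L84 and 1.10 and 0.654 in LA, against -0.147, 0.700 and 0.690 in LC. The L60 arrays were thus the highest pair of Wnt9a and the lowest pair of Wnt7a, and Wnt8b was below LC in L60 and L84. The difference in L60 was 1.68 ± 0.61 for Wnt9a, -1.64 ± 0.60 for Wnt7a and -1.04 ± 0.36 for Wnt8b, each with an adjusted p of 1.0. The 2 Wnt8b probe sets differed in size, at -1.85 and -0.244.

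The other 8 ligands are given by their differences. Wnt2, Wnt5b, Wnt8a, Wnt9b, Wnt10a and Wnt10b overlapped LC in all 3 lines, with differences between -0.341 and 1.41 in L60, -1.38 and 0.172 in L84 and -0.657 and 1.34 in LA. Wnt10a and Wnt10b are ligands of hair follicle placodes, and their L84 arrays lay at 1.51 and -1.30 for Wnt10a and at -0.141 and -1.29 for Wnt10b. Wnt6, made in surface epithelia, lay below LC in L84 (-0.962 ± 0.53, adjusted p = 0.565) and above it in LA (1.31 ± 0.53, adjusted p = 0.252). LC 2 and LC 3 of Wnt6 were tied with L60 2 at 0.0801, and LC 1 lay at 0.102. Wnt16 had the largest positive difference of the ligands in L84 (1.75 ± 0.81, adjusted p = 0.490), with -0.301 and 2.17 on the L84 arrays against -1.28, -0.868 and -0.301 on the LC arrays. The L84 arrays overlapped LC at -0.301, whereas both LA arrays lay above LC (1.20 ± 0.81, adjusted p = 0.433).

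Some ligand genes lie next to each other in the genome with 0 protein-coding genes between them in the GRCm38.p6 annotation. In LA, Wnt6 and Wnt10a on chromosome 1 differed from LC by 1.31 and -0.66, and Wnt3a and Wnt9a on chromosome 11 by 2.02 and -0.44. Wnt9b and Wnt3, also on chromosome 11, differed by -0.20 and 1.24, and Wnt10b and Wnt1 on chromosome 15 by 0.95 and 1.89. In L84 the differences of the same pairs, in this order, were -0.96 and 0.09, 0.17 and -0.26, -1.38 and 1.61, and -0.75 and 0.47, all of opposite sign. In L60 they were -0.74 and 0.51, 0.57 and 1.68, 0.52 and 0.29, and -0.34 and -0.04, with the same sign in 3 of the 4 pairs. In LA the same sign was seen in 1 pair, Wnt10b and Wnt1. No test was made of a difference within a pair.

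**Figure D3:**
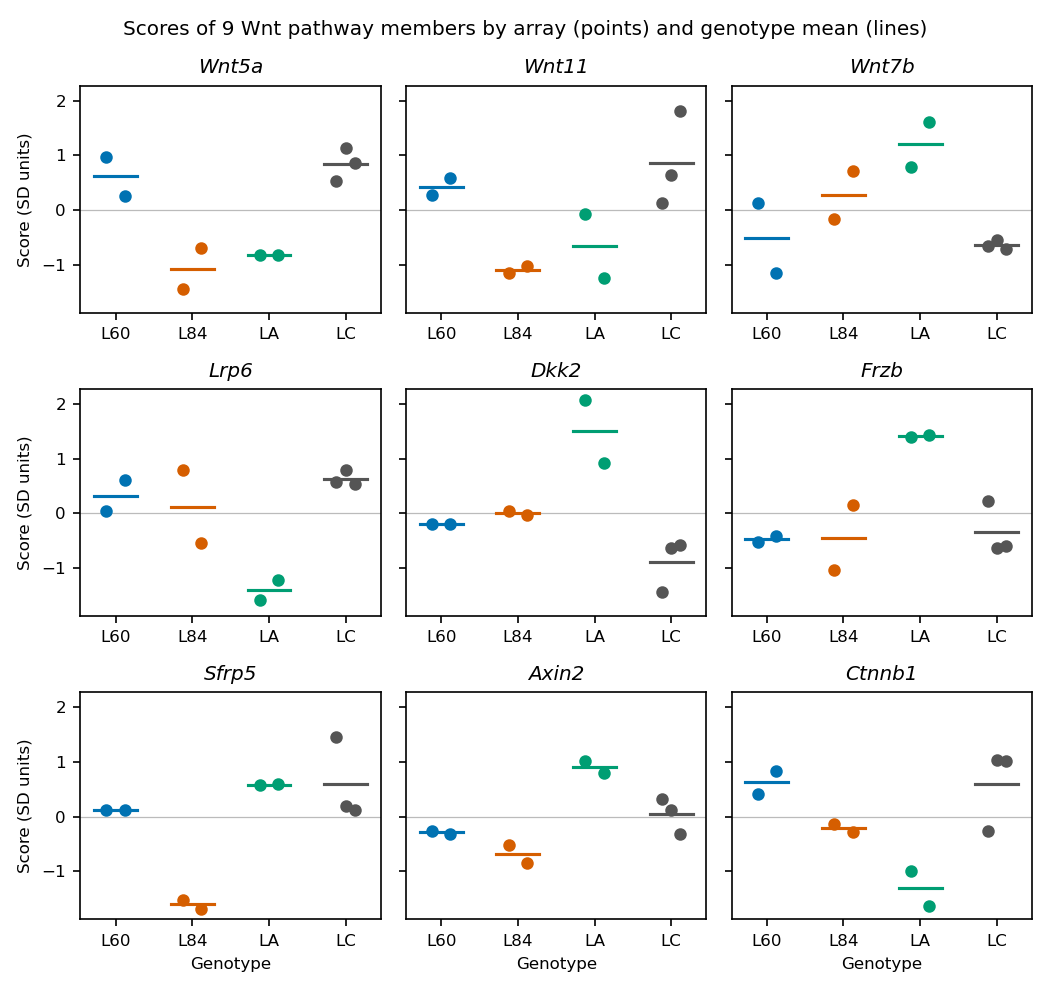
Scores (vertical axis, SD units) of Wnt5a, Wnt11, Wnt7b, Lrp6, Dkk2, Frzb, Sfrp5, Axin2 and Ctnnb1 on each array (points), by genotype (horizontal axis, LC at the right), with the genotype mean as a line. Both L84 arrays of Sfrp5 lie at -1.51 and -1.68, and both LA arrays of Lrp6 at -1.58 and -1.22.

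Among the receptors, Lrp6, a co-receptor for Wnt ligands, was low in LA. Its scores were 0.0395 and 0.603 in L60, 0.784 and -0.540 in L84 and -1.58 and -1.22 in LA, against 0.565, 0.800 and 0.544 in LC. The LA arrays were the lowest of the 9, and L60 and L84 overlapped LC. The difference in LA was -2.03 ± 0.44 (adjusted p = 0.0972), with a 95% interval from -3.15 to -0.913, and its 2 probe sets gave -2.02 and -2.04. Without L84 1, or without L84 2, which enter only through the shared spread, the same difference of -2.03 had an adjusted p of 0.0439.

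Its relative Lrp5 was high in LA. Lrp5 scored -0.0245 and 0.866 in L60, -0.618 and -0.679 in L84 and 1.24 and 0.952 in LA, against -1.57, 0.778 and -0.949 in LC. The LA arrays were the highest of the 9, while the LC arrays ranged widely. The difference in LA was 1.68 ± 0.75 (adjusted p = 0.284), and that in L84 was -0.0690 ± 0.75 (adjusted p = 0.988).

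Of the 9 Frizzled genes, Fzd2, Fzd6 and Fzd9 lay below all LC arrays in LA, with differences of -1.50 ± 0.51 (adjusted p = 0.20), -1.54 ± 0.61 (adjusted p = 0.245) and -1.53 ± 0.86 (adjusted p = 0.365). Fzd6 is known for the orientation of hairs in mouse skin. Fzd7 lay above LC in L60, at 1.12 and 0.741 in L60, 0.923 and -0.804 in L84 and -0.208 and -0.871 in LA, against -0.568, -0.409 and 0.0779 in LC. Its difference in L60 was 1.23 ± 0.58 (adjusted p = 1.0). Fzd3 lay below LC in L60 and L84, and the arrays of Fzd1, Fzd4, Fzd5 and Fzd8 overlapped LC in all 3 lines. Over the 11 receptors the median difference was -0.123 in L60, -0.316 in L84 and -0.521 in LA.

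Among the secreted inhibitors, Dkk2, which binds the Lrp co-receptors, was above all LC arrays on every transgenic array. It scored -0.185 on both L60 arrays, 0.0384 and -0.0205 in L84 and 2.08 and 0.916 in LA, against -1.43, -0.635 and -0.582 in LC. The LA arrays were the highest. The difference was 0.696 ± 0.43 in L60 (adjusted p = 1.0), 0.890 ± 0.43 in L84 (adjusted p = 0.510) and 2.38 ± 0.43 in LA (adjusted p = 0.0734). The value in LA had the smallest adjusted p of the 47 genes in that comparison, and the tie on the L60 arrays narrows the spread on which it rests.

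Frzb, a Frizzled-related protein that binds ligands, was also high in LA. Its scores were -0.527 and -0.405 in L60, -1.04 and 0.151 in L84 and 1.39 and 1.43 in LA, against 0.224, -0.630 and -0.593 in LC. The LA arrays were the highest of the 9. The difference in LA was 1.74 ± 0.44 (adjusted p = 0.130), and the 2 probe sets gave 2.19 and 1.30. In L84 they disagreed, at 0.881 and -1.10.

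Sfrp5, which also binds ligands, was low in L84. It scored 0.129 on both L60 arrays, -1.51 and -1.68 in L84 and 0.573 and 0.594 in LA, against 1.45, 0.188 and 0.129 in LC. The L84 arrays were the lowest of the 9, and LC 1 lay far above the other LC arrays. The difference in L84 was -2.19 ± 0.43 (adjusted p = 0.169). Without LC 1 it was -1.76 with an adjusted p of 0.0155, so that the call turns on this array. The tie on the L60 arrays narrows the spread on which both of these tests rest. The difference in LA was -0.00680 ± 0.43 (adjusted p = 0.994), with a 95% interval from -1.12 to 1.11.

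Wif1, a ligand-binding inhibitor, was highest on L60 1. Its scores were 1.67 and 0.541 in L60, -0.941 and -0.804 in L84 and 0.0001 and -1.29 in LA, against -0.226, 1.28 and -0.226 in LC. The L84 arrays lay below all LC arrays, and the other lines overlapped LC. The difference was 0.829 ± 0.70 in L60 (adjusted p = 1.0), -1.15 ± 0.70 in L84 (adjusted p = 0.601) and -0.919 ± 0.70 in LA (adjusted p = 0.481). Dkk1, Dkk4, Sfrp2 and Sfrp4 overlapped LC in all 3 lines. Of the 2 genes of these families that were not counted here, Sfrp1 fell in LA (-1.75 ± 0.17, adjusted p = 0.0202), and Dkk3 differed by 1.89 ± 0.40 in L84 (adjusted p = 0.187) and 1.73 ± 0.40 in LA (adjusted p = 0.108).

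Of the cytoplasmic components, Axin2, the scaffold of beta-catenin degradation and a target of the pathway itself, lay on opposite sides of LC in L84 and LA. Its scores were -0.262 and -0.309 in L60, -0.518 and -0.855 in L84 and 1.01 and 0.800 in LA, against 0.320, 0.127 and -0.311 in LC. The L84 arrays were the lowest and the LA arrays the highest of the 9. The difference from LC was -0.330 ± 0.22 in L60 (adjusted p = 1.0), -0.732 ± 0.22 in L84 (adjusted p = 0.312) and 0.859 ± 0.22 in LA (adjusted p = 0.130). LA minus L84 was 1.59 ± 0.24 (adjusted p = 0.213), the smallest unadjusted p of the 47 genes in that comparison, at 0.00118.

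The 2 Axin2 probe sets did not show the same pattern. The probe set 1421341_at scored 0.229 and -0.642 in L60, -1.18 and -1.74 in L84 and 0.767 and 0.303 in LA, against 0.616, 0.229 and 1.42 in LC. The probe set 1436845_at scored -0.752 and 0.0247 in L60, 0.147 and 0.0247 in L84 and 1.25 and 1.30 in LA, against 0.0247, 0.0247 and -2.04 in LC. The low L84 value of the gene thus came from 1421341_at and the high LA value from 1436845_at, on which several arrays were tied. Their differences were -2.21 and 0.750 in L84 and -0.219 and 1.94 in LA.

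Ctnnb1, which codes for beta-catenin, was low in LA. It scored 0.421 and 0.829 in L60, -0.138 and -0.279 in L84 and -0.998 and -1.63 in LA, against -0.264, 1.04 and 1.01 in LC. The LA arrays were the lowest of the 9, and LC 1 lay apart from the other LC arrays. The difference in LA was -1.91 ± 0.48 (adjusted p = 0.129). Its 3 probe sets were all lower in LA, at -2.39 ± 0.18, -1.67 ± 0.79 and -1.66 ± 0.74. The first of them, 1420811_a_at, passed the test over all probe sets (adjusted p = 0.0174), with 0.832 and 0.370 in L60, 0.0375 and -0.311 in L84 and -1.53 and -1.71 in LA, against 0.826, 0.786 and 0.703 in LC. The other 2 scored -1.02 and -0.599 on LC 1 and between 1.14 and 1.19 on the other LC arrays.

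Dvl3, which passes the signal on from the receptor, lay below all LC arrays on every transgenic array. It scored -0.0458 and 0.466 in L60, -0.889 and 0.198 in L84 and -1.63 and -0.828 in LA, against 0.480, 1.77 and 0.480 in LC, where LC 1 and LC 3 were tied. The distance to LC was small for L60 2. The difference was -0.700 ± 0.60 in L60 (adjusted p = 1.0), -1.26 ± 0.60 in L84 (adjusted p = 0.503) and -2.14 ± 0.60 in LA (adjusted p = 0.149). Axin1, the constant axin of the complex, was above LC in L60 and below it in L84, at 0.582 and 0.862 in L60, -0.391 and -0.654 in L84 and 0.839 and -0.586 in LA, against -0.333, -0.253 and -0.066 in LC. Its difference was 0.939 ± 0.43 in L60 (adjusted p = 1.0) and -0.305 ± 0.43 in L84 (adjusted p = 0.844). Neither Axin1 probe set lay above all LC arrays in L60 on its own, so that separation rests on their mean. In L84 the probe set 1426967_at lay below all LC arrays, whereas 1426966_at overlapped LC with a difference of 0.707. Apc, Dvl1 and Dvl2 overlapped LC in all 3 lines, and all 7 cytoplasmic components had a negative difference in L84, where 49.9% of all genes did.

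Of the nuclear factors, Tcf7l1, a repressor known from bulge stem cells of the follicle, was below LC in L84 and LA. It scored 0.156 and 0.944 in L60, -1.37 and -0.154 in L84 and 0.149 and -1.32 in LA, against 0.852, 0.158 and 0.582 in LC. The gap between LA 1 and the lowest LC array was 0.149 against 0.158. The difference was -1.29 ± 0.63 in L84 (adjusted p = 0.510) and -1.11 ± 0.63 in LA (adjusted p = 0.365). Tcf7l2, a related TCF factor, scored 1.36 and -0.193 in L60, -0.0321 and -0.243 in L84 and -0.585 and 0.768 in LA, against -0.267, -0.522 and -0.286 in LC. L60 and L84 lay above LC, the nearest arrays narrowly. Its difference was 0.942 ± 0.60 in L60 (adjusted p = 1.0) and 0.450 ± 0.60 in LA (adjusted p = 0.681), and its 4 probe sets differed in sign in all 3 lines.

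**Figure D4:**
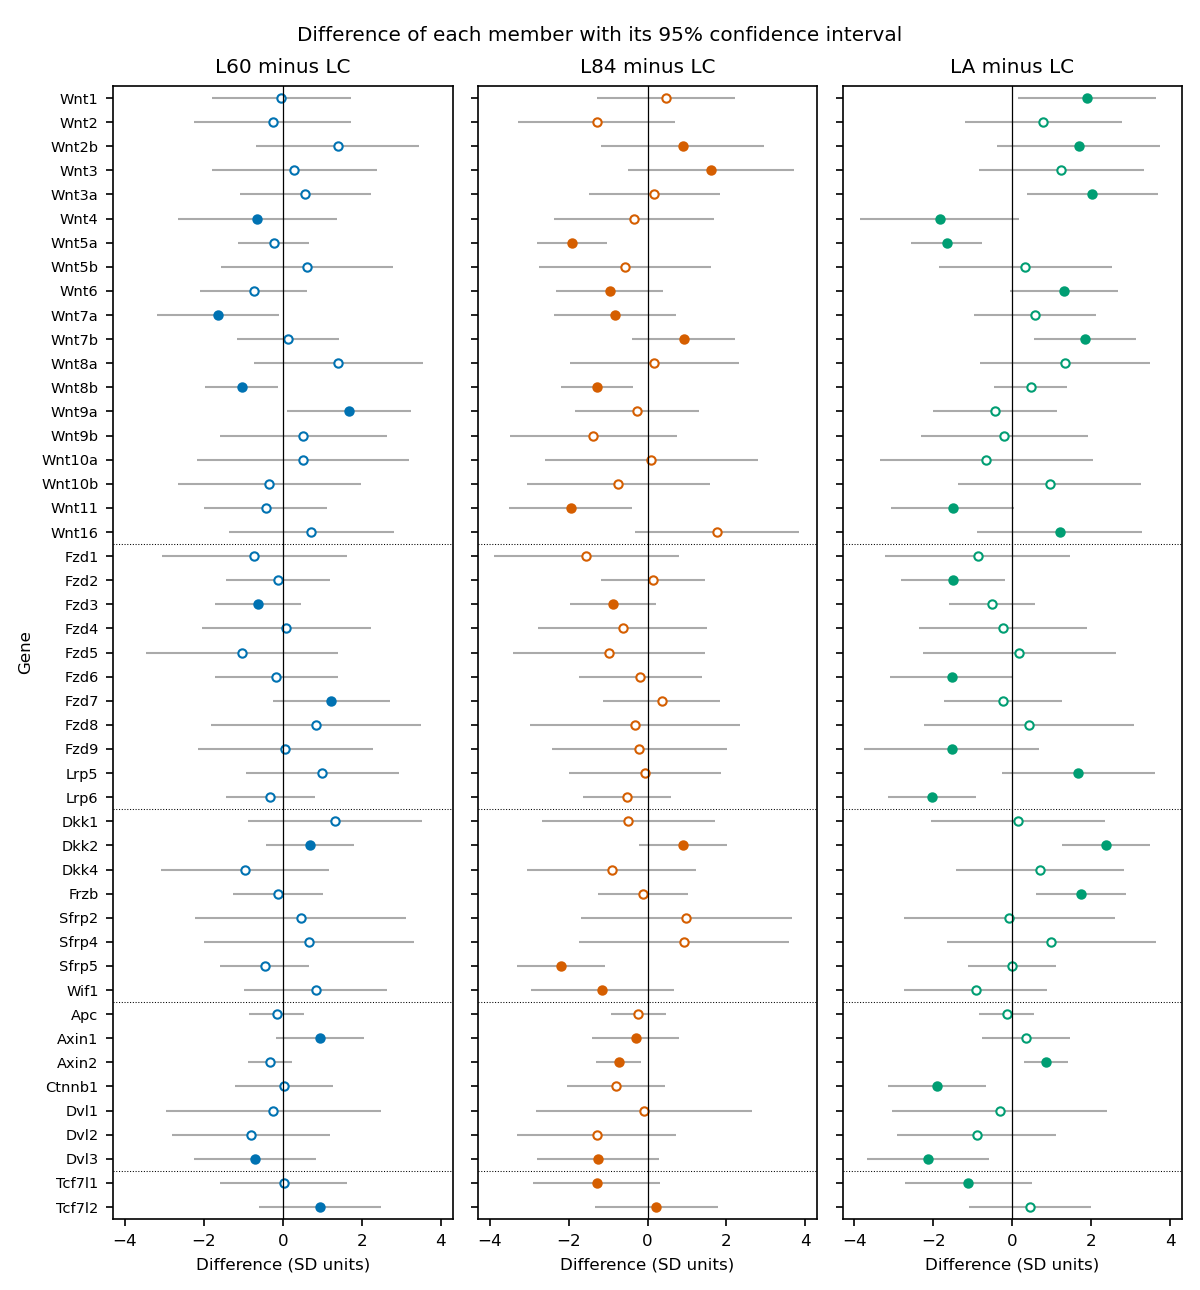
Difference from LC (horizontal axis, SD units) of the 47 Wnt pathway genes (rows) in L60, L84 and LA, with 95% confidence intervals as bars. Filled points mark genes whose line arrays did not overlap the LC arrays, and 0 genes passed the test over all genes.

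**Figure D5:**
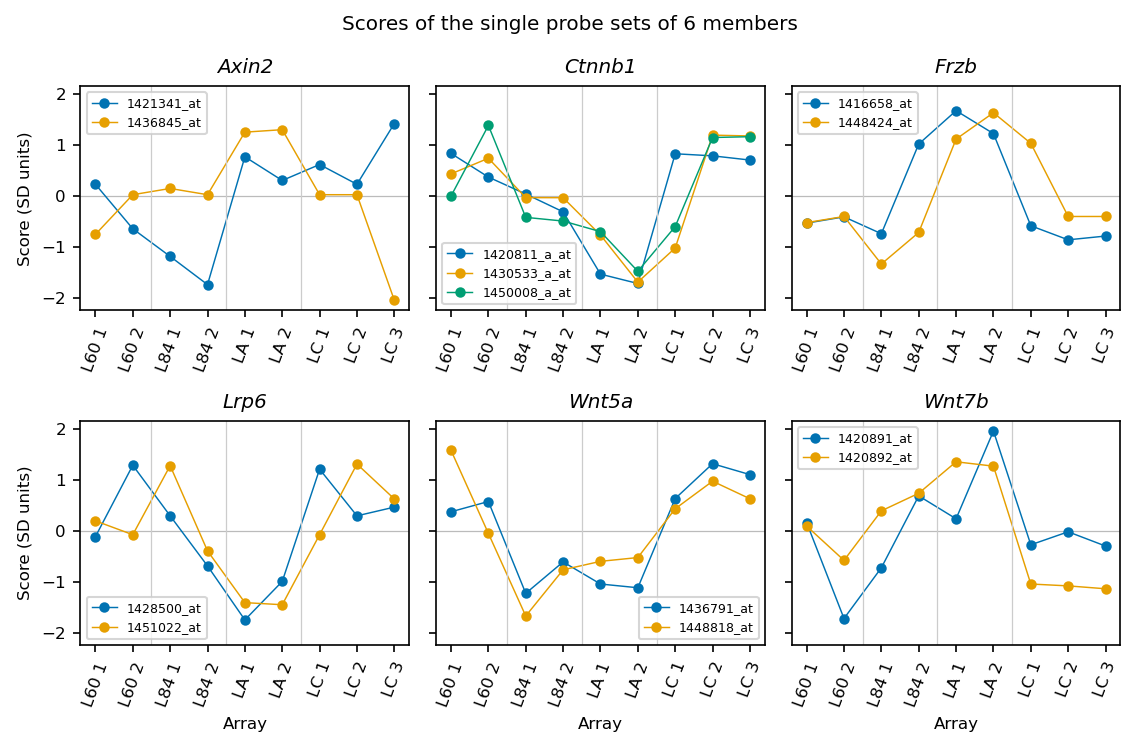
Scores (vertical axis, SD units) of each probe set of Axin2, Ctnnb1, Frzb, Lrp6, Wnt5a and Wnt7b on the 9 arrays (horizontal axis, LC at the right). The 2 Axin2 probe sets part in L84 and LA, and the 3 Ctnnb1 probe sets are all low in LA.

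Probe sets of the same gene often disagreed. Of the 19 genes with more than 1 probe set, the differences of the probe sets had opposite signs for 13 in L60, 9 in L84 and 7 in LA. Those of LA were Apc, Axin2, Fzd3, Fzd4, Fzd7, Tcf7l2 and Wnt8b. Replicate arrays of a line also differed: the median range between the L84 arrays was 1.15 SD units over the 47 genes, with 13 genes over 2, and the widest was 3.43 for Dvl1. The median range was 0.563 in L60 and 0.741 in LA, against 0.767 over the 3 LC arrays. Over all genes it was 0.646 in L60, 1.22 in L84 and 0.901 in LA, against 0.790 in LC.

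The 17 genes whose arrays overlapped LC in all 3 lines (36.2%, against 34.1% of all genes) were Apc, Dkk1, Dkk4, Dvl1, Dvl2, Fzd1, Fzd4, Fzd5, Fzd8, Sfrp2, Sfrp4, Wnt2, Wnt5b, Wnt8a, Wnt9b, Wnt10a and Wnt10b. Axin2 and Wnt6 lay below LC in L84 and above it in LA (4.26%, against 0.984% of all genes). Neither of the 2 Axin2 probe sets showed this pattern on its own, so for Axin2 it rests on their mean. For Wnt6 it rests on LC arrays with almost no spread, as LC 2 and LC 3 were tied. The 4 genes below LC in both were Wnt5a, Wnt11, Dvl3 and Tcf7l1 (8.51%, against 8.35% of all genes). The 3 above LC in both were Dkk2, Wnt2b and Wnt7b (6.38%, against 8.86% of all genes). The comparisons share the LC arrays, so these patterns are not independent of each other.

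In the mean of the 3 lines against LC, 0 of 47 genes passed (0.637% of all genes), and 6 were under 0.05 before adjustment (13.3%). Dkk2 was the 1 gene higher on all 6 transgenic arrays (3.7% of all genes) and Dvl3 the 1 gene lower (2.98%). The mean of the lines minus LC was 1.32 ± 0.34 for Dkk2 (adjusted p = 0.219), -1.37 ± 0.46 for Dvl3 (adjusted p = 0.324) and -1.27 ± 0.27 for Wnt5a (adjusted p = 0.170). The F test over the 4 genotypes called 0 of 47 genes (0.734% of all genes), and 9 of them passed before adjustment (14.8%).

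Between the lines, LA and L60 lay farthest apart by the count of genes that did not overlap. In LA against L60, 14 genes were higher on both LA arrays (26.8% of all genes) and 16 lower (23.7%), or 63.8% of the 47 genes against 50.4% of all genes. The test passed 0 of 47 (0.629%), and 12 were under 0.05 before adjustment (16.2%). The leading genes by that p were Axin2 at 1.19 ± 0.24 (adjusted p = 0.131), Frzb at 1.87 ± 0.49 (adjusted p = 0.184) and Wnt8b at 1.51 ± 0.39 (adjusted p = 0.184). The Ctnnb1 probe set 1420811_a_at passed over all probe sets, at -2.22 ± 0.20 (adjusted p = 0.0443).

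In LA against L84, 13 genes were higher (20% of all genes) and 5 lower (13.6%). The test passed 0 of 47 (0.0161%), and 9 had an unadjusted p under 0.05 (10.6%). After Axin2 came Sfrp5 at 2.18 ± 0.48 (adjusted p = 0.303), Wnt8b at 1.75 ± 0.39 (adjusted p = 0.305) and Wnt6 at 2.27 ± 0.58 (adjusted p = 0.363). Of the 8 secreted inhibitors, 7 had a higher mean in LA than in L84, as did 53.6% of all genes.

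In L84 against L60, 3 genes were higher (12% of all genes) and 12 lower (17.5%). The test passed 0 of 47 (0.113%), and 4 had an unadjusted p under 0.05 (8.03%). These were Wnt5a at -1.68 ± 0.38 (adjusted p = 0.379), Sfrp5 at -1.73 ± 0.48 (adjusted p = 0.461), Wnt9a at -1.94 ± 0.67 (adjusted p = 0.557) and Axin1 at -1.24 ± 0.47 (adjusted p = 0.610).

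Other genes of the pathway were read from a list of 65, of which 53 were measured. In L60, 0 rose and 0 fell. In L84 and in LA, 0 rose and 2 fell, Prickle1, a planar polarity gene, and Msx2, a homeobox gene of the hair matrix. Of all genes, 0% were called in L60, 0.565% in L84 and 1.8% in LA. The median difference of the 53 was -0.016 in L60, -0.447 in L84 and -0.512 in LA, against 0.078, 0.003 and 0.247 over all genes. Prickle1 differed from LC by -2.15 ± 0.16 in L84 (adjusted p = 0.0168) and -2.07 ± 0.16 in LA (adjusted p = 0.0119). Msx2 differed by -1.85 ± 0.20 in L84 (adjusted p = 0.0487) and -2.09 ± 0.20 in LA (adjusted p = 0.0202).

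Of 17 measured genes commonly read as targets, the difference was positive for 9 in L60, 3 in L84 and 4 in LA. Over all genes it was positive for 54.8%, 50.1% and 56.1%. Msx2 alone of the 17 passed the test, in L84 and LA. Lef1, which is also the TCF family partner of beta-catenin in the hair matrix, was lower without passing the test. Lef1 scored 0.374 and 0.905 in L60, -1.33 and -0.622 in L84 and -0.986 and -0.990 in LA, against 0.249, 1.13 and 1.27 in LC. The difference was -1.86 ± 0.41 in L84 (adjusted p = 0.195) and -1.87 ± 0.41 in LA (adjusted p = 0.0999). Ccnd1, the cyclin D1 gene, differed by -1.52 ± 0.34 (adjusted p = 0.203) and -1.64 ± 0.34 (adjusted p = 0.0937) in these lines. Nkd1, a feedback inhibitor, was -2.11 ± 0.53 in L84 (adjusted p = 0.252) and -0.0185 ± 0.53 in LA (adjusted p = 0.987). In L84, 9 of the 17 targets lay below all LC arrays (14.7% of all genes) and 1 above (13.8%). In LA, 6 lay below (21%) and 0 above (27.8%), and in L60, 1 lay below (10.8%) and 2 above (14.4%). The largest fall of a target in L84 was that of Bmp4, at -2.14 ± 0.40 (adjusted p = 0.162). Some targets had a positive difference. Myc, a growth regulator, scored 1.62 and 1.60 in L60, against -0.755, -0.133 and -0.133 in LC. Both L60 arrays lay above LC, by 1.95 ± 0.43 between the means (adjusted p = 0.689). Fst, which codes for follistatin, scored 2.16 and 0.440 in L84, against 0.328, -1.27 and -1.06 in LC. Both L84 arrays lay above LC, by 1.97 ± 0.73 between the means (adjusted p = 0.389). Msx2, Prickle1 and Lef1 were low on the 4 arrays on which the hair shaft markers were also low.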

How the data were processed

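Total RNA of whole skin was hybridised to 9 Affymetrix arrays, 1 pool each, and per the submitters' processing notes RMA was used, with no version given. The authors deposited a score for each of 22690 probe sets, with mean 0 and SD 1 over the 9 arrays. Whether values were logged before this step is not given in the sources used here, and signal over background cannot be read from them. Of the probe sets, 20380 named 1 gene, 691 several, 1555 none and 64 were controls. Symbols matched a current mouse record for 20351. Some scores were tied in 52.1% of the Wnt probe sets and 44.3% of all.

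A gene's score was the mean of its probe sets. A linear model with a mean for each of the 4 genotypes was fitted to all 12393 genes and 9 arrays (limma 3.58.1, R 4.3.3). Contrasts were tested without moderated variances, the form planned for standardised scores, with Benjamini-Hochberg adjustment over all genes, and the procedure was tested on simulated data.

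The genes and lists were chosen with earlier results of these data known. All 47 genes are accounted for. Array values are given for genes called in any contrast, for the 4 largest differences each way per line among genes not overlapping LC, and for Axin2, Ctnnb1, Wif1, Frzb, Lrp5, Lrp6, Tcf7l1 and Tcf7l2. Other genes with values were chosen after these were seen. Alternatives left out arrays, moderated the variance, used a replicate block, only the compared arrays, array weights, centred medians or single probe sets.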

Additional observations from a re-analysis of the deposited data

How the results depend on the processing

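The count of called Wnt genes was 0 in each of the 8 comparisons, and 128 recomputed counts were also 0, against 7 that were not. Without LC 1 it was 1 in L84 against LC, in L84 against L60 and in the F test, each time Sfrp5. Without L84 1 or without L84 2 it was 1 in LA against LC, Lrp6. Leaving out single arrays thus gave counts from 0 to 1 in these comparisons and 0 in the others. With every probe set on its own it was 2 in LA against LC (Ctnnb1 and Wnt7b) and 1 in LA against L60 (Ctnnb1). The shares of all genes or probe sets called under these settings are not given here. These counts therefore cannot be set against a general rate. The replicate block gave 0 in all comparisons. Deviations of arrays with the same number correlated between -0.0833 and 0.345. Not every pair was over 0.1 and the labels state no pairing, so the numbers were not taken to pair the arrays. The highest value was that of L84 with LA, and the 3 arrays high in 18S all have number 1, so a shared factor for some of them was not tested. The cause of these changes was not tested.

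Of 60 differences of named genes, 53 kept their sign without any 1 array. The other 7 ranged from -0.401 to 0.251 (Ctnnb1 in L60), -0.281 to 0.146 (Frzb in L60), -0.702 to 0.484 (Frzb in L84), -0.563 to 0.610 (Lrp5 in L84), -1.18 to 0.148 (Lrp6 in L84), -0.375 to 0.413 (Tcf7l1 in L60) and -0.227 to 1.13 (Tcf7l2 in LA). Probe sets of opposite sign to their gene gave in L60 -0.0133 (Tcf7l2), 0.300 (Axin2), -0.170 (Ctnnb1), 0.272 (Frzb), -0.542 (Tcf7l1), 0.221 and 0.322 (Fzd3). In L84 they gave 0.750 (Axin2), 0.881 (Frzb), -0.0808 and -0.384 (Tcf7l2), 0.707 (Axin1) and 0.107 (Fzd3), and in LA -0.219 (Axin2) and -0.594 (Tcf7l2). Setting array medians to 0 gave -0.0421 for Ctnnb1 and -0.0517 for Tcf7l1 in L60. Array weights gave -0.272 for Ctnnb1 and 0.0638 for Frzb in L60, and 0.0875 for Frzb in L84. Without the 3 arrays high in 18S they were -0.197 for Ctnnb1 and 0.206 for Frzb in L60, and 0.763 for Frzb in L84. Without L84 1 and LA 2, Frzb in L84 was 0.484 and Tcf7l2 in LA -0.227.

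Counts of genes apart from LC, or between lines, rose or stayed the same when 1 array was left out, since fewer arrays must lie apart. Their highest values were 14 higher (without L60 2) and 12 lower (without L60 1) in L60, against 32.5% and 25.1% of all genes. They were 12 and 25 in L84 (both without L84 2, 36.4% and 37.2%), and 17 (without LA 1) and 17 (without LA 2) in LA (42.4% and 29.2%). For L84 against L60 they were 12 (without L84 1) and 27 (without L84 2; 31.7% and 39.7%), for LA against L60 19 and 22 (39.5% and 34%), and for LA against L84 29 (without L84 2) and 13 (without L84 1; 41.2% and 23.9%). Without L84 1, 17 genes (36.2%) were higher in LA than in L84, against 37% of all genes. The scores give no level, so precision rests on the 2 or 3 pools per genotype, and a missing call does not show that a gene did not differ.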
